A study of Mus musculus with 18 samples.

Results

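The P10 and P2 baseline cardiac fibroblasts are the 2 groups of hearts that were never operated on in a study of the neonatal mouse heart. They were chosen by their labels, 3 libraries at P2 and 3 at P10, which are 6 of the 18 libraries of the series, and all genes were compared. The remaining 12 libraries are of operated pups, either sham or with the apex resected, taken 3 days after surgery at the same ages and so at P5 or P13. All pups were C57BL/6J mice carrying Tcf21-MerCreMer and Rosa-mTmG and all received tamoxifen at P1. In such mice a tamoxifen-dependent Cre recombinase is made under the Tcf21 gene, which is active in resident fibroblasts and their epicardial precursors, and a cell in which Cre has acted trades membrane tdTomato for membrane GFP for life. The GFP+ cells sorted at P10 were therefore those labelled at P1 and their descendants, and cells that switched Tcf21 on later were not marked. Cells came from the apical part of the ventricles, and the tissue of older hearts was digested for longer. The sex of the pups and the number of pups in a library are not given in the sources used here. The p-values thus measure the spread between libraries of a group, which may in part be technical. This spread was estimated over all 18 libraries, those of operated pups included.

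Fibroblasts are the main makers of the extracellular matrix of the heart. Around birth they divide along with the growing myocardium, and in the weeks that follow the interstitial matrix is rebuilt: fibrillar collagen bundles, elastic fibres, basement membranes and the enzymes and inhibitors that process them. The question put by these groups is how the labelled fibroblasts differ between an age at which the resected mouse heart regenerates and an age at which it scars, in the absence of any surgery.

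The baseline libraries held between 10462737 and 20096992 counted reads. P10 replicate 1 stood apart from the other P10 libraries in several measures. Its mitochondrial transcripts took 0.697% of the counts against 0.253% and 0.198% in P10 replicates 2 and 3 (0.676% to 0.909% at P2), its 10 most abundant genes took 13.8%, and its title lacks a letter P that ends the titles of the other P10 baseline libraries and is not explained in the labels. Its Pearson correlation of log2 CPM with P10 replicates 2 and 3 was 0.895 and 0.865 across genes, against 0.935 between these, and genes are not independent replicates. CPM is the read count scaled to a common library size with TMM factors. The libraries also differed in sex-linked transcripts. Y-linked Ddx3y was at 68.4, 35 and 71.8 CPM at P2 and at 0, 10.2 and 26.8 CPM at P10, in replicate order, and X-inactivation transcript Xist was at 21.9, 95.4 and 0 CPM at P2 and 153, 14.2 and 2.57 CPM at P10, and neither was called. The part of these library differences in the age difference was not tested. The lineage gene Tcf21 was present in every library, at 285, 312 and 282 CPM at P2 and 232, 344 and 376 CPM at P10, and these ranges overlapped. Gata4, a cardiac transcription factor that ventricular fibroblasts share, was at 344, 360 and 351 CPM at P2 and 276, 406 and 358 CPM at P10.

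Of 16170 genes tested, 709 passed a Benjamini-Hochberg adjusted p of 0.05 in the quasi-likelihood test of edgeR, 4.38% of all, and these are the genes called here. They were 438 higher at P10, 2.71%, and 271 lower, 1.68%. Counts of called members in a gene list are to be read beside these shares of all genes. The shares called in the retinoid (5.88%), antioxidant (6.45%), contractile (6.67%) and Wnt (6.67%) lists were near the 4.38% of all genes. Called differences were mostly large: 634 of the 709 exceeded 2-fold, the smallest was 0.62 on the log2 scale and the median 1.67. Genes higher at P10 reached up to the most abundant transcripts of the cells, such as Col3a1, while those lower at P10 were mostly of middle abundance. When any 1 of the 6 libraries was left out, 188 of the 709 genes were called every time, 135 higher and 53 lower at P10. The number of called members of a list moved too, and its range over these 6 fits is given beside most lists, the highest count mostly without P10 replicate 1. For genes given with their statistics that lose the call without a library, the highest adjusted p of the 6 fits that leave 1 out is given. The 188 genes include Plk1, Kif15, Mcm6, Ccnd1, Pi16, Hmcn2, Vtn, Eln, Smoc2, Ackr3, Cxcl12, Thbd and Steap4. Leaving out P10 replicate 1 raised the count to 1207, and leaving out any other library lowered it, to 264 without P10 replicate 2, 289 without P2 replicate 1, 345 without P10 replicate 3, 346 without P2 replicate 2 and 435 without P2 replicate 3. Although more genes were called without P10 replicate 1, some calls given here were lost without it, at adjusted p from 0.0512 to 0.140: those of Col3a1, Col4a3, Nid2, Dcn, Lum, Cemip2, Adamts17, Fap, Fzd1, Etv4, Edn1, Adm, Cd55, Runx2, Slc16a1, Eno2, Nr1d1, Hmga2 and Rgs5. Reads were counted without regard to strand and a read shared by genes was not counted, so that genes whose exons overlap another annotated gene are uncertain. This holds for Ccnd1, Mest, Spry1, Gas1, Entpd2, Fbn1 and Tbx18, with 19.9% to 28.8% of their exon length shared, for Jund with 52.6%, and for Igf2bp3, C1s1, Dbp, Ccne2 and Angptl1 with 16.4% to 18.7%.

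**Figure D1:**
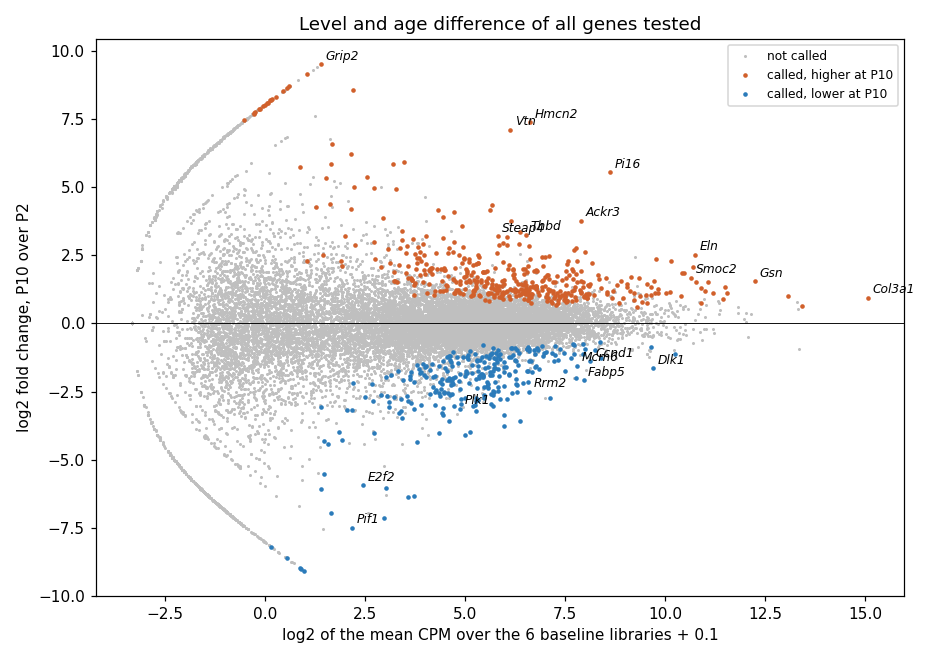
Each point is 1 of the 16170 genes tested, by its mean level over the 6 baseline libraries (log2 of CPM + 0.1, x axis) and its fitted log2 fold change, P10 over P2 (y axis). The 438 genes called higher at P10 (orange) extend to the right edge at Col3a1, and the 271 called lower (blue) lie mostly at middle levels; arcs at the left are genes at 0 in 1 group, whose fitted values are no bounds.

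Many genes that drive cell division were lower at P10. DNA replication and licensing genes build and fire the replication origin and copy DNA: 22 of 52 members tested fell, none rose, and 48 had every P10 library below every P2 library, beside 12.1% of all genes. Their median log2 fold change was -1.59 against -0.03 over all genes. Mitosis and kinetochore genes condense, attach and part the chromosomes: 31 of 67 fell, none rose, 65 were below at P10 without overlap, and the median log2 fold change was -2.33. The summed level of the mitosis list was 4815, 4484 and 4384 CPM at P2 and 1588, 785 and 933 CPM at P10. P10 replicate 1 was thus the highest of the P10 libraries for these genes and still below every P2 library. Without it, 48 mitosis genes fell, and without P10 replicate 2, 15 did. For the replication list the sums were 3908, 3358 and 3977 CPM at P2 and 1377, 1339.7 and 1592 CPM at P10, where replicate 1 did not stand apart, and 11 to 23 members fell when any 1 library was left out. A lower level in a sorted bulk sample may reflect fewer cells of a kind or less RNA in each cell, and these cannot be told apart.

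Among the licensing and replication genes, Mcm6, a subunit of the helicase that opens the origin (chromosome 1, 128331590 to 128359664, minus strand), was at 329, 314 and 354 CPM at P2 and 98.8, 118 and 121 CPM at P10 (log2 fold change -1.56, SE 0.23, adjusted p = 0.000899). The P10 libraries lay at about a common level, all far under those at P2. Gmnn, which keeps an origin from being licensed a second time, was at 41.5, 38.7 and 50 CPM at P2 and 11.7, 5.51 and 4.14 CPM at P10 (log2 fold change -2.6, SE 0.45, adjusted p = 0.00302). Prim1, the primase subunit that lays the RNA primer, was at 56.7, 43.3 and 66.1 CPM at P2 and 6.73, 9.26 and 8.88 CPM at P10 (log2 fold change -2.74, SE 0.39, adjusted p = 0.000641). Rrm2, the regulated subunit of ribonucleotide reductase, fell from 192, 131 and 172 CPM to 38.3, 21.1 and 27.4 CPM (log2 fold change -2.51, SE 0.35, adjusted p = 0.00059). Asf1b, the chaperone that hands new histones to the replication fork, showed the largest fall of the called members, from 61.7, 54.1 and 78.7 CPM to 6.25, 6.15 and 11.6 CPM (log2 fold change -3.02, SE 0.49, adjusted p = 0.00183). None of these ranges overlapped, and each of these 5 genes was called whichever baseline library was left out. Pold2, an accessory subunit of DNA polymerase delta, was the only member of the list with a positive log2 fold change, and it was not called.

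In mitosis, Plk1, the polo kinase that drives entry into and passage through M phase (chromosome 7, 122159439 to 122169873, plus strand), was at 70.5, 45 and 41.5 CPM at P2 and 5.82, 7.81 and 4.14 CPM at P10 (log2 fold change -3.13, SE 0.38, adjusted p = 0.000179). Ndc80, the kinetochore subunit that grips the microtubule, was at 40.7, 46.6 and 45.3 CPM at P2 and 2.73, 4.66 and 3.75 CPM at P10 (log2 fold change -3.57, SE 0.56, adjusted p = 0.00133). Kif15, a spindle kinesin, was at 44.7, 37.5 and 35.5 CPM and 5.52, 4.07 and 1.87 CPM (log2 fold change -3.35, SE 0.57, adjusted p = 0.00259). Ncapg, a condensin subunit, was at 37.7, 41.8 and 34.5 CPM and 4.06, 2.41 and 0.395 CPM (log2 fold change -4.02, SE 0.76, adjusted p = 0.00567). These 4 had the largest falls of the called members and were called with any 1 library left out. In each the highest P10 library was far below the lowest P2 library. Top2a, the topoisomerase that untangles sister chromatids, was the most abundant member, at 276, 235 and 221 CPM at P2 and 76.3, 17.4 and 14.8 CPM at P10 (log2 fold change -2.75, SE 0.62, adjusted p = 0.0168). Its level in P10 replicate 1 was far above those of the other P10 libraries, and its call was lost without P2 replicate 1, P10 replicate 2 or P10 replicate 3 (adjusted p = 0.0953 without P10 replicate 2). Mki67, the gene of the Ki-67 antigen, was chosen after its values were seen as the usual marker of cycling cells. It was at 282, 246 and 138 CPM at P2 and 90, 6.42 and 2.66 CPM at P10, with no overlap, and was not called (log2 fold change -2.74, SE 1.04, adjusted p = 0.158).

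Many cell cycle promoters carry a short element named CHR beside CCAAT boxes, through which genes of G2 and mitosis are repressed in resting cells, or E2F sites, which act on genes of G1 and S phase. To set these letters beside the falls above, the reference promoters of these genes were searched on both strands from 250 bases before to 50 bases after the start, in RefSeq windows of GRCm38.p6. CHR was searched as TTTGAA or TTCGAA, the CCAAT box as CCAAT, and the E2F site as TTTCCCGC, TTTGGCGC, TTTCGCGC or TTTGCCGC. A CHR was in 44 of 62 windows of 57 mitosis genes, 71.0%, against 13.9% of 14706 windows of genes tested and 19.2% of all 32851 windows. A CCAAT box was in 75.8% of the mitosis windows against 37.2% of those of genes tested. An E2F site was in 16 of 48 windows of 42 replication genes, 33.3%, against 3.75% of windows of genes tested, and in 8.065% of mitosis windows. Replication windows held a CHR in 22.9% and a CCAAT box in 54.2%, each also above its share of windows of genes tested. These are counts of letters, not of sites in use. They cover all members of a list, called or not, and so describe the lists rather than the falls at P10. The part of these elements in the falls was not tested. The windows of a gene with several starts can overlap. Of the mitosis genes Cdk1, the kinase of M phase (log2 fold change -2.14, adjusted p = 0.0126, and adjusted p = 0.0718 without P10 replicate 2), Ube2c, which loads ubiquitin for the anaphase-promoting complex (log2 fold change -2.76, adjusted p = 0.00638), and Top2a hold both elements just before the start, and Mcm6 of the replication genes holds E2F sites and CCAAT boxes. The stretches from 120 to 10 bases before the start are shown 5′ to 3′ on the strand of the gene, with matches in capitals. They show both arrangements in genes that fell at P10. ATTGG is the CCAAT box and TTCAAA the CHR read on the other strand.
Cdk1 (chr10:69352922-69353032, minus strand): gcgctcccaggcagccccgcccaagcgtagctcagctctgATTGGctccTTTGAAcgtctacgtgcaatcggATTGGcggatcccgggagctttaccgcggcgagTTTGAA
Ube2c (chr2:164769809-164769919, plus strand): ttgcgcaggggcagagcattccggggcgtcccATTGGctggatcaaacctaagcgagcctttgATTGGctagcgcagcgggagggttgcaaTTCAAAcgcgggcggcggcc
Top2a (chr11:99024199-99024309, minus strand): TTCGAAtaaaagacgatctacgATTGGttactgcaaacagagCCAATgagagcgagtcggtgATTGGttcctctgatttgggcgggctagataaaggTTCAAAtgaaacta
In these 3 promoters the capitals mark CHR and CCAAT boxes, which do not overlap.
Mcm6 (chr1:128359715-128359825, minus strand): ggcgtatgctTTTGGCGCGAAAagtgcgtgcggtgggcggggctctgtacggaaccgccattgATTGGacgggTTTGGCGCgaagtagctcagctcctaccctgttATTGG
In Mcm6 the capitals mark E2F sites and CCAAT boxes, and the first run of capitals holds a pair of E2F matches that overlap on opposite strands.

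Other cell cycle genes gave fewer calls. Of 20 G1 cyclins, kinases and E2f factors, 3 fell and none rose (2 to 5 called with 1 library left out). Ccnd1, the cyclin that passes growth signals to the G1 kinases, was at 445, 405 and 363 CPM at P2 and 149, 168 and 148 CPM at P10 (log2 fold change -1.38, SE 0.28, adjusted p = 0.00966), without overlap. E2f2, an activating E2F factor, was at 16, 8.98 and 6.76 CPM at P2 and 0.303, 0.161 and 0 CPM at P10, at or close to 0 in all P10 libraries (log2 fold change -5.94, SE 0.97, adjusted p = 0.00197). Ccne2, a cyclin of the G1 to S transition, was the other (log2 fold change -2.64, SE 0.64, adjusted p = 0.0247), and its call was lost in 5 of the 6 fits that left out 1 library (adjusted p = 0.121 without P10 replicate 2). Ccnd3 was the most abundant member, at 347, 335 and 481 CPM and 308, 684 and 694 CPM, and these overlapped. Of 20 inhibitors and quiescence genes, 3 rose and 1 fell (1 to 5 called with 1 library left out). Gas1, a membrane protein first known for its rise in growth-arrested fibroblasts, was at 511, 561 and 627 CPM at P2 and 1286, 1270.2 and 1141 CPM at P10 (log2 fold change 1.12, SE 0.19, adjusted p = 0.00283), and was called in every fit that left out 1 library. Cdkn1a, which encodes the inhibitor p21 (adjusted p = 0.0483, rising to 0.221 without P10 replicate 3), and Sesn1, a sestrin (adjusted p = 0.0327, rising to 0.138 without P2 replicate 2), also rose, but lost the call in 5 of these 6 fits. Rbl1, which encodes p107, a relative of Rb made in cycling cells, fell (log2 fold change -2.24, SE 0.48, adjusted p = 0.0127, rising to 0.0678 without P10 replicate 2). Of 17 genes of replicative chromatin, 4 fell and none rose (2 to 7 called with 1 library left out), Dnmt1, Ezh2, Uhrf1 and Hmgb2. Uhrf1, which recruits the maintenance DNA methyltransferase to new DNA, was at 103, 61.5 and 105 CPM at P2 and 20.6, 16.6 and 10.1 CPM at P10 (log2 fold change -2.51, SE 0.45, adjusted p = 0.00384), and 44.3% of its longest transcript matches an annotated gene copy, so that some of its reads may not have been counted. Hmgb2, a chromatin protein of dividing cells, was at 132, 154 and 143 CPM and 61.5, 27.6 and 39.7 CPM (log2 fold change -1.74, SE 0.32, adjusted p = 0.00439). Uhrf1 and Hmgb2 were called with any 1 library left out, and Dnmt1 and Ezh2 were not (adjusted p = 0.184 without P10 replicate 3 for Dnmt1, and adjusted p = 0.0612 without P10 replicate 2 for Ezh2).

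**Figure D2:**
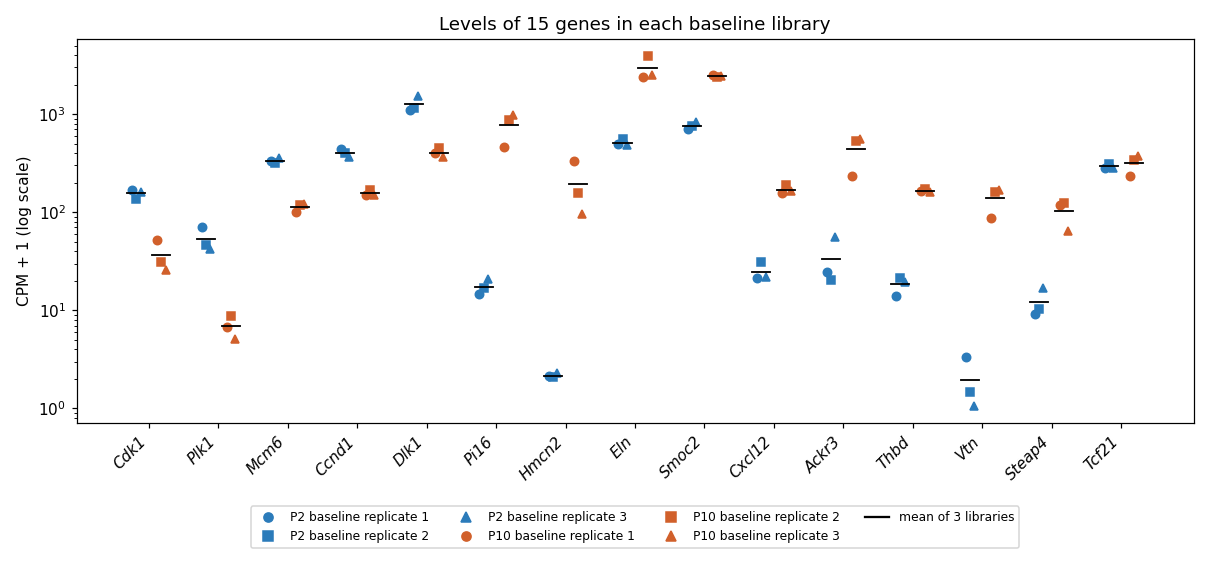
CPM + 1 on a log axis of 15 genes described in the text (x axis) in each P2 (blue) and P10 (orange) baseline library, where the symbol marks the replicate and the black bar the mean of 3 libraries. Cdk1 to Dlk1 are lower and Pi16 to Steap4 higher in all 3 P10 libraries than in any P2 library, and Tcf21 overlaps.

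Some genes of fetal growth were lower as well. Of 21 imprinted genes, which are expressed from the copy of 1 parent and act mostly on growth before birth, 3 fell and none rose, the median log2 fold change was -1.07 and 19 were negative. Dlk1, a membrane ligand of fetal and progenitor cells (chromosome 12, 109452823 to 109463336, plus strand), was at 1104, 1163 and 1517 CPM at P2 and 398, 449 and 365 CPM at P10 (log2 fold change -1.64, SE 0.36, adjusted p = 0.0143). Mest, the most abundant member, was at 1407, 1522 and 2097 CPM and 794, 798 and 708 CPM (log2 fold change -1.13, SE 0.23, adjusted p = 0.0111, rising to 0.0561 without P2 replicate 3). Slc38a4, an amino acid transporter, also fell (log2 fold change -1.07, SE 0.29, adjusted p = 0.0462, rising to 0.201 without P10 replicate 3). Each group was separate for these 3, yet the calls rest on single libraries: without P10 replicate 3 none of the list was called, without P2 replicate 3 none, and without P10 replicate 1 there were 9. For Dlk1 this gave adjusted p = 0.0654 without P10 replicate 3 at most. H19 and Igf2, imprinted neighbours, were chosen after their values were seen. H19 was at 715, 605 and 963 CPM at P2 and 291, 467 and 389 CPM at P10, lower without overlap but not called (log2 fold change -0.99, SE 0.44, adjusted p = 0.237), and Igf2 was at 62.8, 90.4 and 55.8 CPM and 119.8, 72.1 and 70.4 CPM, which overlapped. Igf2 exons share 62.8% of their length with another annotated gene on the same strand, and reads that fall on both are not counted. Among 9 oncofetal genes 2 fell, and 1 was called with any 1 library left out. The RNA-binding protein gene Igf2bp3 was at 46.7, 42.6 and 33.7 CPM at P2 and 10.9, 7.92 and 6.91 CPM at P10 (log2 fold change -2.26, SE 0.37, adjusted p = 0.002), and was called with any 1 library left out. Hmga2, the architectural factor of fetal mesenchyme, was at 8.15, 5.02 and 3.41 CPM and 0.0607, 0.214 and 0.493 CPM (log2 fold change -4.44, SE 1.11, adjusted p = 0.034) and lost its call in each of these fits (adjusted p = 0.142 without P10 replicate 2).

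Per length, counted as CPM per kilobase of exon, the most abundant of 13697 protein-coding genes included collagens and other matrix genes beside genes such as Lgals1, Itm2a and Actb. Col3a1, the chain of collagen III, ranked 2 at P2 with 2373 CPM per kb and 1 at P10 with 4577. Sparc, a collagen-binding glycoprotein, ranked 3 and 2, with 2229 and 3505 CPM per kb. Lgals1, a galectin, led at P2 with 2778 CPM per kb and was 4 at P10 with 2402. Gsn, which severs actin and is also secreted, went from rank 16 to rank 6, Dcn from 11 to 7, Lum from 26 to 10 and Mmp2 from 33 to 11. Postn, the periostin of valve and fetal fibroblasts, went from 7 to 24, and Ifitm3, an interferon-inducible membrane protein, from 8 to 34. Postn was at 13693, 15604 and 11555 CPM at P2 and 13334, 4388 and 3819 CPM at P10, where P10 replicate 1 lay among the P2 libraries and the others far below, and was not called (log2 fold change -0.92, SE 0.43, adjusted p = 0.261).

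Among the lists of 7 or more genes, the elastic fibre list had the largest share called higher at P10. Elastic fibres are a core of elastin on a scaffold of fibrillin microfibrils, joined by fibulins, Emilins and Mfap proteins and bound by the latent TGF-beta binding proteins. Of 20 members tested, 10 rose and none fell (2.71% of all genes), with a median log2 fold change of 1.37, and 8 or 9 were called with any 1 library left out. Their summed level was 9246, 10399 and 8888 CPM at P2 and 20450.2, 22411 and 19968 CPM at P10. Eln, elastin itself (chromosome 5, 134702593 to 134747323, minus strand), was at 493, 554 and 487 CPM at P2 and 2412, 3888 and 2495 CPM at P10 (log2 fold change 2.52, SE 0.38, adjusted p = 0.000919), a 5.73-fold rise. Mfap4, a microfibril-associated protein, was at 352, 313 and 499 CPM and 1744, 2232 and 1666 CPM (log2 fold change 2.28, SE 0.28, adjusted p = 0.000211). Emilin2, a glycoprotein at the fibre surface, was at 70.2, 77.7 and 80.3 CPM and 385, 387 and 337 CPM (log2 fold change 2.28, SE 0.27, adjusted p = 0.00015). Ltbp4, which assists elastin assembly, was at 1597, 2083 and 1242 CPM and 3972, 4589 and 3895 CPM (log2 fold change 1.34, SE 0.25, adjusted p = 0.00565). These did not overlap between the ages and kept their calls with any 1 library left out. Fbln1, Fbln5 and Ltbp3 also rose and kept their calls, and Ltbp2 and Mfap5 rose but lost theirs in 6 and 4 of the 6 fits. The largest rise of the list, and among the largest of all genes, was that of Hmcn2, hemicentin 2, a giant extracellular protein of cell junctions and basement membranes (chromosome 2, 31314415 to 31460738, plus strand). It was at 1.15, 1.07 and 1.28 CPM at P2 and 332, 157 and 94.6 CPM at P10 (log2 fold change 7.38, SE 0.61, adjusted p = 3.47e-06), so that the lowest P10 library was far above all P2 libraries. Its relative Hmcn1 was not called (log2 fold change -1.51). The fibrillin scaffold did not pass the test: Fbn1 was at 1724, 2100.3 and 955 CPM at P2 and 3650, 1544 and 897 CPM at P10, and Fbn2 had a log2 fold change of -0.95.

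Collagens were split by kind. Of 11 fibrillar collagen genes 2 rose and 1 fell (0 to 2 called with 1 library left out). Col3a1 was at 22487, 25336 and 22068 CPM at P2 and 54921, 45505 and 34346 CPM at P10 (log2 fold change 0.95, SE 0.23, adjusted p = 0.0248), and Col5a3, a minor chain that limits fibril width, was at 261, 308 and 182 CPM and 584, 644 and 498 CPM (log2 fold change 1.2, SE 0.29, adjusted p = 0.0241). Both rises are without overlap, and both calls are lost without 1 of several libraries (adjusted p = 0.111 without P2 replicate 1 for Col3a1, and adjusted p = 0.111 without P2 replicate 3 for Col5a3). Col11a1, a collagen of cartilage and fetal matrix, was at 132, 137 and 119.5 CPM and 42.6, 27 and 11.2 CPM (log2 fold change -2.26, SE 0.52, adjusted p = 0.0184, rising to 0.084 without P10 replicate 2). The collagen I chains were not called: Col1a1 was at 6889, 9859 and 5490.2 CPM at P2 and 15578, 12370.3 and 10216 CPM at P10 (log2 fold change 0.78, SE 0.35, adjusted p = 0.24), and Col1a2 overlapped. Of 22 basement membrane genes 5 rose and none fell (0 to 3 called with 1 library left out), with a median log2 fold change of 0.86, or 0.34 without P10 replicate 1. Col4a4 was at 3.68, 2.05 and 2.13 CPM and 23.8, 12.1 and 18 CPM (log2 fold change 2.77, SE 0.59, adjusted p = 0.0127, rising to 0.0683 without P2 replicate 2), and its head-to-head neighbour Col4a3 at 0.046, 1.12 and 0 CPM and 22, 10.2 and 5.82 CPM (log2 fold change 4.98, SE 1.33, adjusted p = 0.0411, rising to 0.155 without P2 replicate 1). Lamb2, a laminin chain of mature basement membranes, was at 179.7, 265 and 140.4 CPM and 422, 534 and 489 CPM (log2 fold change 1.3, SE 0.28, adjusted p = 0.0141, rising to 0.0752 without P2 replicate 1). Nid2 and Col4a6 also passed, although Col4a6 was at 6.55, 11.4 and 0 CPM at P10. By contrast Col4a1, the chain of the common network and the most abundant member, was at 3650.2, 4630.2 and 3099 CPM and 5612, 4062 and 2921 CPM, which overlapped. None of these 5 calls held in every fit that left out 1 library, and none of the list was called without P2 replicate 3.

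Proteins that decorate and process collagen rose in part. Of 14 small leucine-rich proteoglycans, which coat fibrils and set their spacing, 3 rose and none fell (1 to 3 called with 1 library left out). Dcn, decorin, was at 4935, 5048 and 6959.6 CPM at P2 and 14023, 8837 and 11404 CPM at P10 (log2 fold change 1.02, SE 0.25, adjusted p = 0.0286), and Lum, lumican, was at 1238, 1329 and 1856 CPM and 3798, 2588 and 3194 CPM (log2 fold change 1.12, SE 0.27, adjusted p = 0.0258). P10 replicate 1 was the highest for both, and without it their adjusted p were 0.0649 and 0.0535, or 0.138 and 0.13 without P2 replicate 1. Podn, podocan, was at 2.3, 4.42 and 2.74 CPM and 21.7, 22.1 and 43.2 CPM (log2 fold change 3.19, SE 0.6, adjusted p = 0.00534) and kept its call in every such fit. Of 24 genes of procollagen folding and processing, 3 rose and 1 fell (2 to 6 called with 1 library left out). Pcolce2, which speeds the removal of the C-terminal propeptide, rose 13.5-fold (log2 fold change 3.75, SE 0.3, adjusted p = 3.47e-06), while Adamts2, which removes the N-terminal propeptide, was at 668, 725 and 587 CPM at P2 and 1561, 1346 and 1388 CPM at P10 (log2 fold change 1.12, SE 0.2, adjusted p = 0.00456). Plod1, a lysyl hydroxylase, rose (adjusted p = 0.0174, rising to 0.0958 without P10 replicate 2), and P4ha3, a prolyl hydroxylase subunit, fell (log2 fold change -1.41, SE 0.29, adjusted p = 0.01, rising to 0.0556 without P10 replicate 3). Serpinh1, the collagen chaperone and the most abundant member, was at 2146, 1999.8 and 2709 CPM and 1713, 3314 and 3643 CPM, where P10 replicate 1 lay under the P2 libraries and the other P10 libraries above them. Of 7 crosslinking enzymes only Loxl1, a lysyl oxidase of elastic fibres, was called, at 493, 487 and 595 CPM at P2 and 919, 1120.4 and 1215 CPM at P10 (log2 fold change 1.05, SE 0.18, adjusted p = 0.00261).

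Matrix proteases and their inhibitors rose at 9 of 35 members tested, none fell, and 4 to 8 were called with any 1 library left out. Mmp2, gelatinase A, was at 1874, 2066 and 1641 CPM at P2 and 3932, 4246 and 4072 CPM at P10 (log2 fold change 1.13, SE 0.18, adjusted p = 0.00136), with the libraries of an age close together. Adamtsl4 and Adamtsl2, which bind fibrillin and lack the protease domain, were at 40.5, 56.4 and 38 CPM and 29.5, 48.8 and 33.4 CPM at P2 and at 171, 172 and 174 CPM and 229.6, 251 and 129 CPM at P10. Their log2 fold changes were 1.94 (adjusted p = 0.00015) and 2.45 (adjusted p = 0.00384), and all 3 genes kept their calls. Adamts8, an aggrecan and versican protease (log2 fold change 2.23, SE 0.48, adjusted p = 0.0126, rising to 0.077 without P2 replicate 1), Adamts17, Adamts10, Adamts15, Mmp11 and Timp2 made up the rest, of which Timp2 kept its call in all 6 fits and the others lost theirs in 2 to 6 of them. Of 23 matricellular and adhesive glycoproteins 3 rose (1 to 5 called with 1 library left out). Smoc2, a calcium-binding relative of Sparc (chromosome 17, 14279506 to 14404790, plus strand), was at 702, 752 and 833 CPM at P2 and 2505, 2384 and 2439 CPM at P10 (log2 fold change 1.68, SE 0.17, adjusted p = 3.12e-05). The spread within each age was small beside this difference. Sparc was at 7994, 7858 and 9474 CPM and 12125, 13780.3 and 13929 CPM (log2 fold change 0.65, SE 0.17, adjusted p = 0.0377), and Cilp, cartilage intermediate layer protein, at 12, 15.1 and 17.4 CPM and 169, 158 and 122 CPM (log2 fold change 3.34, SE 0.77, adjusted p = 0.0193). The calls of Sparc and Cilp were lost in 5 and 4 of the 6 fits that left out 1 library (adjusted p = 0.165 without P2 replicate 1 for Sparc, and adjusted p = 0.0976 without P2 replicate 1 for Cilp). Fn1, fibronectin, was at 2865, 3575 and 1574 CPM and 3253, 1912 and 1157 CPM and not called. Of 13 hyaluronan and versican genes 1 fell, Cemip2, a hyaluronidase of the cell surface (log2 fold change -1.77, SE 0.48, adjusted p = 0.0464, rising to 0.183 without P10 replicate 2), and its call was lost in all 6 fits that left out 1 library. Of 15 contractile and activation genes 1 rose (0 to 1 called with 1 library left out), Fap, a surface protease of activated fibroblasts (log2 fold change 1.34, SE 0.31, adjusted p = 0.0201, rising to 0.115 without P2 replicate 1), and Acta2, the actin of myofibroblasts, was at 728, 533 and 865 CPM and 462, 772 and 664 CPM, which overlapped.

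**Figure D3:**
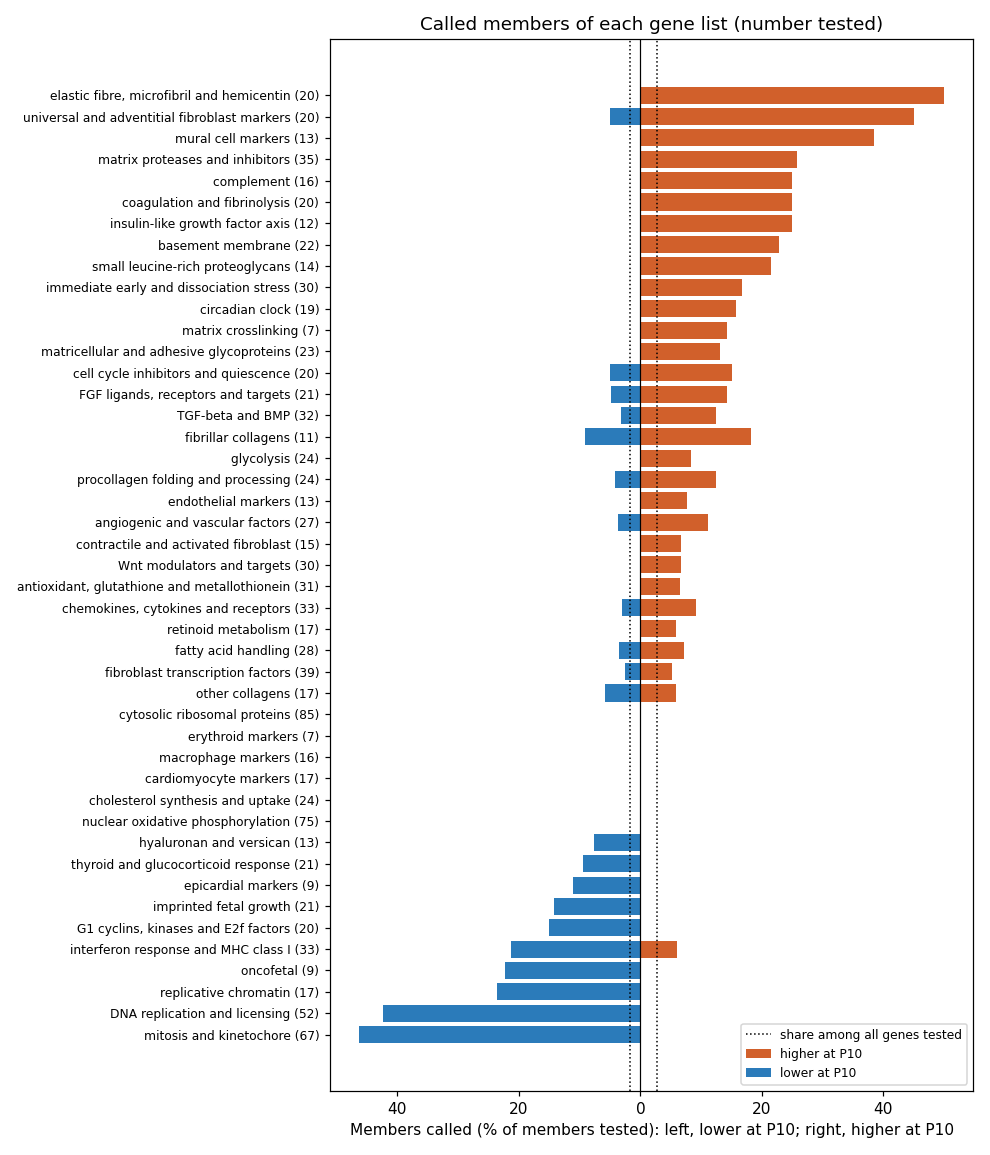
Share of the members tested in each gene list (y axis, number tested in parentheses, lists of 7 or more) that were called higher (orange, right) or lower (blue, left) at P10, in percent, with the shares among all genes tested, 2.71% and 1.68%, as dotted lines. Mitosis (31 of 67) and replication (22 of 52) lead to the left, and elastic fibre (10 of 20) and universal fibroblast markers (9 of 20) to the right.

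Markers of the adventitial or universal fibroblast, a Pi16+ state found in the vessel sheath of many adult organs, rose at 9 of 20 members tested, 1 fell, the median log2 fold change was 1.35, and 7 to 10 were called with any 1 library left out. Pi16, a secreted peptidase inhibitor (chromosome 17, 29317680 to 29330593, plus strand), was at 13.6, 15.9 and 20 CPM at P2 and 463, 863 and 984 CPM at P10 (log2 fold change 5.54, SE 0.47, adjusted p = 3.7e-06), a 46.7-fold rise. Clec3b, tetranectin, was at 65.4, 60.7 and 86.5 CPM and 247, 489.9 and 567 CPM (log2 fold change 2.62, SE 0.39, adjusted p = 0.000973), Entpd2, an ectonucleotidase, at 53.4, 66.5 and 80.1 CPM and 233, 316 and 364 CPM (log2 fold change 2.19, SE 0.3, adjusted p = 0.00041), and Gsn at 2796, 2769 and 1847 CPM and 4769, 8398 and 8399 CPM (log2 fold change 1.54, SE 0.23, adjusted p = 0.00106). In all 4, P10 replicate 1 was the lowest of the P10 libraries and still above every P2 library, and the calls held with any 1 library left out. Cd34 and Cd248 also rose and kept their calls, and Scara3, Scara5 and Efhd1 rose but lost theirs in 2 to 4 of the 6 fits that left out 1 library. The surface ectonucleotidase Nt5e fell (log2 fold change -1.83, adjusted p = 0.0351, rising to 0.153 without P10 replicate 3). Other members did not pass: Dpp4 was at 39.7, 24.7 and 47.5 CPM and 79.7, 62.8 and 61.9 CPM, Ly6a, which encodes Sca-1, at 15.7, 12.8 and 5.67 CPM and 22.1, 48.6 and 45.6 CPM, and Thy1 at 20.4, 15.9 and 42.5 CPM and 36.9, 31.8 and 43.2 CPM. Pdgfra, the receptor stained in the sort, was at 353, 581 and 304 CPM and 836, 415 and 336 CPM, which overlapped. Among 39 fibroblast transcription factors only 3 were called (0 to 5 called with 1 library left out). Tbx20, a T-box factor of the embryonic heart, was at 414, 444 and 190.2 CPM at P2 and 155, 66.9 and 40.7 CPM at P10 (log2 fold change -2.0, SE 0.52, adjusted p = 0.0371), while Osr1 (log2 fold change 1.5, SE 0.39, adjusted p = 0.0378) and Runx2 (log2 fold change 4.38, SE 1.11, adjusted p = 0.0322) rose. None of these 3 calls held in every fit that left out 1 library (adjusted p = 0.156 without P10 replicate 2 for Tbx20, adjusted p = 0.164 without P10 replicate 3 for Osr1 and adjusted p = 0.13 without P2 replicate 1 for Runx2).

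In the insulin-like growth factor axis 3 of 12 genes rose, all binding proteins. Igfbp6, which prefers IGF-II, was at 11.8, 9.16 and 19.5 CPM at P2 and 62.6, 119 and 119 CPM at P10 (log2 fold change 2.89, SE 0.44, adjusted p = 0.00116), Igfbp7 at 1772, 1932 and 2112 CPM and 3720, 3493 and 3625 CPM (log2 fold change 0.9, SE 0.15, adjusted p = 0.00259), and Igfbp4 at 827, 733 and 1108 CPM and 1782, 2219 and 1418 CPM (log2 fold change 1.02, SE 0.24, adjusted p = 0.0198). Igfbp6 and Igfbp7 kept their calls with any 1 library left out, and Igfbp4 lost its call in 3 of these fits (adjusted p = 0.121 without P10 replicate 2). The ligand Igf1 was at 62.2, 66.2 and 78.4 CPM and 150.1, 63.8 and 39.5 CPM, which overlapped. Of 32 TGF-beta and BMP genes 4 rose and 1 fell (2 to 5 called with 1 library left out). Bmp6, a BMP ligand (chromosome 13, 38345107 to 38500302, plus strand), was at 45.9, 77.7 and 58 CPM at P2 and 224, 193 and 213 CPM at P10 (log2 fold change 1.79, SE 0.22, adjusted p = 0.000204), and Bmp4 was at 35.7, 47.6 and 32.8 CPM and 74.4, 88.2 and 89.9 CPM (log2 fold change 1.12, SE 0.27, adjusted p = 0.0223). Chrd, chordin, which traps BMPs, was at 15.1, 7.58 and 4.39 CPM and 26.5, 43.9 and 36.4 CPM (log2 fold change 1.97, SE 0.41, adjusted p = 0.0105), and the ligand Tgfb3 rose to 216, 249.9 and 251 CPM (log2 fold change 0.99, SE 0.27, adjusted p = 0.0447). Smad6, an inhibitor inside the cell that BMP signals induce, fell from 81.2, 90.2 and 56.8 CPM to 17.4, 28.8 and 19.3 CPM (log2 fold change -1.8, SE 0.34, adjusted p = 0.00526). Bmp6 and Smad6 kept their calls, and Bmp4 (adjusted p = 0.107 without P2 replicate 1), Chrd (adjusted p = 0.0567 without P2 replicate 2) and Tgfb3 (adjusted p = 0.176 without P2 replicate 3) did not.

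Of 30 Wnt modulators and targets 2 rose (1 to 3 called with 1 library left out), the ligand Wnt9a, at 7.83, 8.37 and 14.7 CPM at P2 and 36.4, 56.6 and 64.7 CPM at P10 (log2 fold change 2.35, SE 0.33, adjusted p = 0.000641), and the receptor Fzd1 (log2 fold change 0.88, SE 0.24, adjusted p = 0.0437, rising to 0.173 without P2 replicate 2). Of 21 FGF genes 3 rose and 1 fell (1 to 3 called with 1 library left out). The ligand Fgf16 was at 0.0921, 0 and 0.731 CPM and 15.8, 5.73 and 11.8 CPM (log2 fold change 5.38, SE 0.98, adjusted p = 0.00461), from near 0, and Fgf18 was at 11.6, 13.8 and 21.3 CPM and 39.1, 43.7 and 45.2 CPM (log2 fold change 1.45, SE 0.33, adjusted p = 0.0184). Spry1, a feedback inhibitor of FGF signals, was at 532, 577 and 570.4 CPM and 914, 917 and 1000.1 CPM (log2 fold change 0.75, SE 0.18, adjusted p = 0.0241), and Etv4, a transcription factor that FGF signals induce, fell (log2 fold change -1.89, SE 0.51, adjusted p = 0.0442, rising to 0.189 without P10 replicate 2). Wnt9a and Fgf16 held with any 1 library left out, and Fzd1, Fgf18, Spry1 and Etv4 did not (adjusted p = 0.107 without P2 replicate 1 for Fgf18, and adjusted p = 0.118 without P2 replicate 1 for Spry1). Of 33 chemokine and cytokine genes 3 rose and 1 fell, and those that rose belong to the CXCL12 pathway or scavenge chemokines. Cxcl12, the chemokine that holds leukocytes and progenitors in stromal niches (chromosome 6, 117168535 to 117181367, plus strand), was at 20.3, 30.2 and 20.8 CPM at P2 and 155, 187 and 166 CPM at P10 (log2 fold change 2.83, SE 0.36, adjusted p = 0.000276). Ackr3, the receptor that clears it, was at 23.4, 19.4 and 54.5 CPM and 231, 534 and 561 CPM (log2 fold change 3.77, SE 0.5, adjusted p = 0.000363). Ackr2, which clears inflammatory CC chemokines, was at 4.65, 3.58 and 9.63 CPM and 44.2, 52.5 and 43.1 CPM (log2 fold change 2.97, SE 0.42, adjusted p = 0.000641). These 3 did not overlap and kept their calls. Ccl2, a monocyte chemokine, was at 124, 103 and 142 CPM and 45.5, 15.2 and 29.3 CPM (log2 fold change -2.04, SE 0.54, adjusted p = 0.0391), and lost its call in 5 of 6 such fits (adjusted p = 0.172 without P10 replicate 2).

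Of 27 angiogenic factors 3 rose and 1 fell (0 to 3 called with 1 library left out). Angptl2 was at 1459, 1519 and 1276 CPM at P2 and 2493, 2537 and 2117 CPM at P10 (log2 fold change 0.75, SE 0.17, adjusted p = 0.0162, rising to 0.0876 without P10 replicate 2), Angptl1 at 6.31, 7.91 and 13 CPM and 51.4, 28.6 and 24.5 CPM (log2 fold change 1.94, SE 0.38, adjusted p = 0.00777, rising to 0.0526 without P2 replicate 1), and the vasodilator gene Adm rose (adjusted p = 0.0437, rising to 0.173 without P2 replicate 2). Edn1, which encodes the vasoconstrictor endothelin 1, fell (log2 fold change -1.51, SE 0.36, adjusted p = 0.0215, rising to 0.129 without P2 replicate 1). Each of these 4 calls was lost when 1 or more of the libraries was left out. Coagulation and fibrinolysis genes rose at 5 of 20 members and complement genes at 4 of 16, and none of either list fell. With 1 library left out 4 to 6 coagulation genes were called, and of the complement genes 4 without P10 replicate 3, 3 without P10 replicate 1, 2 without P2 replicate 1 or P10 replicate 2 and 1 without P2 replicate 2 or P2 replicate 3. Thbd, thrombomodulin, which turns thrombin from clotting to its restraint (chromosome 2, 148404466 to 148408188, minus strand), was at 13.2, 20.6 and 18.5 CPM and 166, 170.3 and 161 CPM (log2 fold change 3.25, SE 0.29, adjusted p = 5.32e-06). Vtn, vitronectin, an adhesive protein of plasma and matrix, was at 2.35, 0.465 and 0.0609 CPM at P2 and 85.5, 161 and 167 CPM at P10 (log2 fold change 7.12, SE 0.72, adjusted p = 3.12e-05). Serpinf1, the anti-angiogenic pigment epithelium-derived factor, was at 288, 252 and 320 CPM and 597, 887 and 841 CPM (log2 fold change 1.44, SE 0.22, adjusted p = 0.0011), and Gas6, a ligand of the TAM receptors, at 31.2, 38.5 and 35.8 CPM and 119, 167 and 132 CPM (log2 fold change 1.99, SE 0.29, adjusted p = 0.000701). F3, tissue factor, rose (adjusted p = 0.0108, rising to 0.0668 without P2 replicate 1). Of the complement genes, Serping1, the C1 inhibitor, was at 359.7, 453 and 459.6 CPM at P2 and 1054, 1330.3 and 1407 CPM at P10 (log2 fold change 1.58, SE 0.27, adjusted p = 0.00259), and the proteases C1ra and C1s1 and the regulator Cd55 rose as well, each losing its call in 3 or 4 of the 6 fits that left out 1 library. C1ra has a near-identical copy, C1rb, over 81.6% of its longest transcript, so that its count is uncertain. Thbd, Vtn, Serpinf1, Gas6 and Serping1 kept their calls with any 1 library left out.

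The interferon response and MHC class I list moved in opposite directions within itself. Of 33 members tested 7 fell and 2 rose, the median log2 fold change was -1.22, and 18 lay below at P10 without overlap, beside 12.1% of all genes. Those that fell were interferon-stimulated genes. Isg15, a ubiquitin-like modifier (chromosome 4, 156199424 to 156200818, minus strand), was at 51.6, 77.8 and 52 CPM at P2 and 6.13, 2.35 and 2.17 CPM at P10 (log2 fold change -4.08, SE 0.85, adjusted p = 0.0111), and Rtp4, an interferon-induced chaperone, at 63.9, 83.2 and 59.9 CPM and 6.67, 6.26 and 9.67 CPM (log2 fold change -3.2, SE 0.68, adjusted p = 0.0126). Irf7, the factor that amplifies type I interferon, was at 74.4, 133 and 57.3 CPM and 16.9, 10.1 and 16 CPM (log2 fold change -2.63, SE 0.71, adjusted p = 0.0426, rising to 0.172 without P10 replicate 2), and Gbp3, Bst2 and Xaf1 also fell, each losing its call in 4 or more of the 6 fits that left out 1 library. Isg15 and Rtp4 lost their calls without P10 replicate 2 (adjusted p = 0.0676 and 0.0722), and 2 to 10 list members were called in these fits. Exons of Rtp4 share 13.9% of their length with another annotated gene on the same strand, where reads were not counted. The 2 members that rose, H2-K1 (log2 fold change 1.57, adjusted p = 0.0126, rising to 0.0677 without P2 replicate 2) and H2-D1 (log2 fold change 1.19, adjusted p = 0.0391, rising to 0.165 without P2 replicate 2), are the classical MHC class I heavy chains, a multigene family between whose copies reads can be lost.
Interferon-stimulated promoters carry an element named ISRE, searched here on both strands as TTTC, any 2 bases and TTTC. It was in 12 of 31 windows of 27 genes of the list, 38.7%, against 3.14% of windows of genes tested. This share too covers members called or not, and the part of the element in the falls was not tested. The promoter of Isg15 is shown from 120 to 10 bases before the start, with 3 overlapping matches on the other strand in capitals, as the gene of the list with the largest called fall.
Isg15 (chr4:156200828-156200938, minus strand): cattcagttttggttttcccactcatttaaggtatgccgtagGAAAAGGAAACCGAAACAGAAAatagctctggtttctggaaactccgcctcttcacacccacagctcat

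Genes that mark other cells or the handling of tissue moved with age too, and they are given beside the results above. Mural cell markers, those of pericytes and vascular smooth muscle, rose at 5 of 13 members with a median log2 fold change of 1.13, 3 were called without P2 replicate 1 or P2 replicate 2, and their summed level was 876, 929 and 633 CPM at P2 and 2230.5, 1718 and 1342 CPM at P10. Steap4, a pericyte metalloreductase, was at 8.15, 9.21 and 16 CPM at P2 and 117, 122.8 and 63.7 CPM at P10 (log2 fold change 3.19, SE 0.47, adjusted p = 0.000899). Kcnj8, the pore of the pericyte potassium channel, was at 35.6, 42.9 and 53.6 CPM and 122, 196 and 198 CPM (log2 fold change 1.97, SE 0.32, adjusted p = 0.00209), and Higd1b at 5.29, 5.35 and 5.79 CPM and 22.1, 33 and 43.4 CPM (log2 fold change 2.58, SE 0.37, adjusted p = 0.000641). These 3 held with any 1 library left out. Rgs5 and the smooth muscle myosin Myh11 rose as well and lost their calls in 4 and 3 of the 6 fits, while Abcc9, the partner of Kcnj8, Cspg4, Notch3 and Mcam were not called. Vitronectin, given above with the coagulation genes, is also made by mural cells, and the part of such cells in its rise was not tested. Cardiomyocyte markers summed to 1291 to 1680 CPM at P2 and 618 to 788 CPM at P10. Of 17 members 9 lay below without overlap, beside 12.1% of all genes, and none was called (7 at an unadjusted p under 0.05, 2 by DESeq2). Epicardial markers summed to 86.3 to 95.4 CPM at P2 and 30.1 to 51.7 CPM at P10, most of it Tbx18, which fell (log2 fold change -1.13, SE 0.3, adjusted p = 0.0391, rising to 0.173 without P10 replicate 3), with Krt8 and Bnc1 at 0 in all 6 libraries. Endothelial markers summed to 229 to 389 CPM at P2 and 380 to 424 CPM at P10, with 1 of 13 called, Esam, which lost its call in 4 of the 6 fits that left out 1 library (adjusted p = 0.177 without P2 replicate 3). Macrophage markers overlapped, at 16.8 to 86.8 CPM at P2 and 20.0 to 267 CPM at P10. Erythroid markers were at 25.0 to 47.2 CPM at P2 and 47.4 to 158 CPM at P10, and none of 7 was called (4 at an unadjusted p under 0.05, 1 by DESeq2). Schwann cell markers summed to at most 14.8 CPM and adipocyte markers to at most 4.83 CPM in any library, with Sox10, Gfra3, Adipoq and Cidec at 0 in all 6.

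Immediate early and dissociation stress genes, which cells switch on within minutes of handling, rose at 5 of 30 members and none fell. Their median log2 fold change was 1.04, and 17 lay above at P10 without overlap, beside 10.3% of all genes. Junb, an AP-1 subunit, was at 519, 579 and 694 CPM at P2 and 1791, 2219 and 2437 CPM at P10 (log2 fold change 1.85, SE 0.38, adjusted p = 0.0101, rising to 0.0575 without P2 replicate 1), and Klf2 was at 345, 344 and 437 CPM and 617, 950 and 856 CPM (log2 fold change 1.11, SE 0.23, adjusted p = 0.011, rising to 0.0664 without P10 replicate 2). Jun, Jund and Dusp1 also rose, each with P10 replicate 1 the lowest P10 library, none of the 5 calls held in every fit that left out 1 library, and 0 to 7 members were called in these fits, 7 without P10 replicate 1 and 0 without P2 replicate 1. Fos, chosen after its values were seen, was at 1502, 1468 and 1271 CPM and 2504, 3028 and 2310.3 CPM and not called. The older hearts were digested for longer, so that digestion and age cannot be told apart, for these or any other genes. The sham libraries hold the same difference in digestion. There the median log2 fold change of this list was 0.15, with 1 member called.

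**Figure D4:**
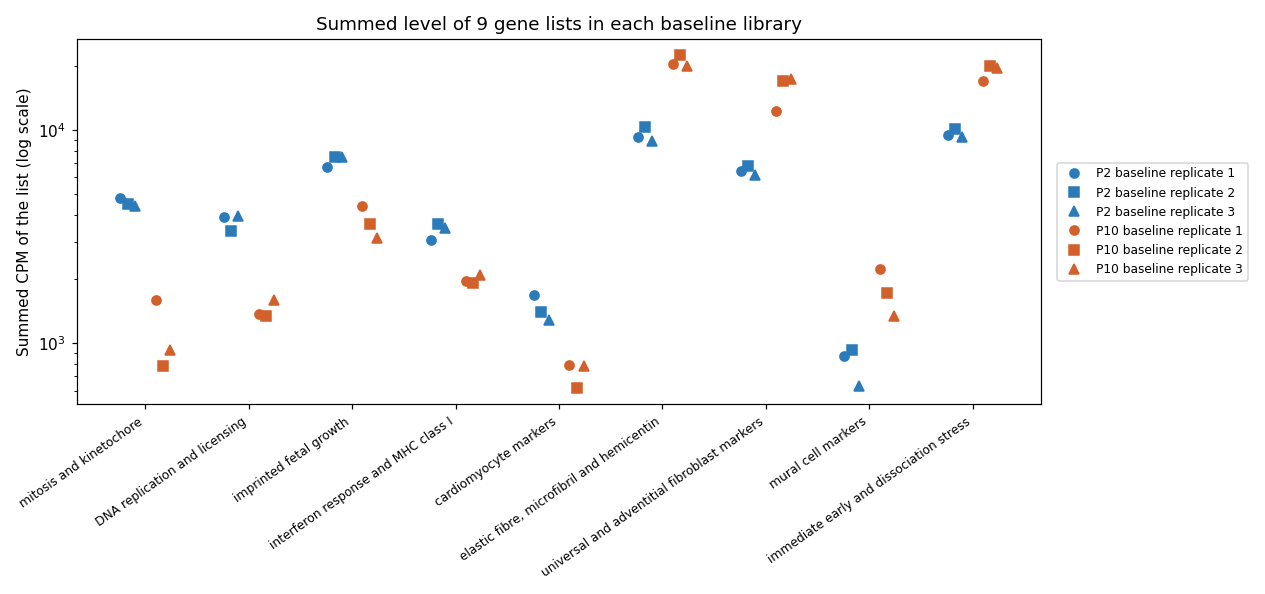
Summed CPM on a log axis of all members of 9 gene lists (x axis) in each P2 (blue) and P10 (orange) baseline library, with the symbol marking the replicate. The first 5 lists are lower and the last 4 higher in all P10 libraries, and P10 replicate 1 is the highest P10 library for the mitosis list, at 1588 CPM, and the mural list, at 2230.5 CPM.

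Clock, hormone and metabolic genes gave fewer calls. Of 19 circadian clock genes 3 rose (1 to 4 called with 1 library left out), and 18 had a positive log2 fold change. Tef, a clock output factor, was at 45.4, 66.5 and 70.9 CPM at P2 and 214, 169 and 172 CPM at P10 (log2 fold change 1.6, SE 0.25, adjusted p = 0.00136) and kept its call with any 1 library left out, its relative Dbp was at 3.96, 1.53 and 17.5 CPM and 45.4, 60.3 and 55.9 CPM (log2 fold change 2.82, SE 0.71, adjusted p = 0.0297, rising to 0.138 without P2 replicate 1), and the repressor Nr1d1 at 20.9, 22.3 and 56.9 CPM and 131, 95 and 115 CPM (log2 fold change 1.77, SE 0.47, adjusted p = 0.0416, rising to 0.181 without P2 replicate 1). The hour at which hearts were collected is not given in the sources used here, and the part of it in these differences was not tested. Of 21 thyroid and glucocorticoid response genes 2 fell (0 to 2 called with 1 library left out), among them Fkbp5, a glucocorticoid target (log2 fold change -1.88, SE 0.49, adjusted p = 0.0344), though the list's median log2 fold change was 0.73. The call of Fkbp5 was lost in 5 of the 6 fits that left out 1 library (adjusted p = 0.15 without P10 replicate 3). In fatty acid handling 2 of 28 rose and 1 fell (1 to 5 called with 1 library left out). Fabp5, a fatty acid binding protein, was at 383, 336 and 488 CPM and 84.6, 97.1 and 102 CPM (log2 fold change -2.09, SE 0.26, adjusted p = 0.000213), while Pnpla2, the triglyceride lipase, was among those that rose and lost its call in 4 of the 6 fits. Of 31 antioxidant genes 2 rose, the extracellular superoxide dismutase Sod3, at 67.7, 45.4 and 79.9 CPM and 244, 347 and 346 CPM (log2 fold change 2.28, SE 0.3, adjusted p = 0.00031), and Gstt1, at 4.65, 3.12 and 10.6 CPM and 21.8, 57.8 and 46 CPM (log2 fold change 2.78, SE 0.5, adjusted p = 0.00407), and both kept their calls. Glycolysis genes rose at 2 of 24, Slc16a1 and Eno2, and retinoid genes at 1 of 17, Rarg, which are 8.33% and 5.88% beside 2.71% of all genes. With 1 library left out 0 or 1 of the glycolysis genes and 0 to 2 of the retinoid genes were called. Eno2, an enolase, was at 0.368, 0 and 0 CPM at P2 and 13.2, 2.46 and 0.592 CPM at P10, highest by far in P10 replicate 1, and lost its call in 3 of the 6 fits (adjusted p = 0.0748 without P2 replicate 2), Slc16a1 in all 6 and Rarg in 4. None of 75 nuclear oxidative phosphorylation genes was called by edgeR, with a median log2 fold change of 0.02 (1 at an unadjusted p under 0.05, 1 by DESeq2), none of 85 cytosolic ribosomal protein genes, with a median of -0.30 (7 at an unadjusted p under 0.05, 0 by DESeq2), of which 76 had a negative log2 fold change and 31 lay below at P10 without overlap, beside 12.1% of all genes, and none of 24 cholesterol genes, with a median of 0.27 (2 at an unadjusted p under 0.05, 2 by DESeq2). With 1 library left out these medians lay between -0.19 without P10 replicate 3 and 0.27 without P2 replicate 3 for oxidative phosphorylation, between -0.40 without P2 replicate 1 and -0.18 without P2 replicate 3 for ribosomal proteins, and between 0.01 without P10 replicate 3 and 0.42 without P2 replicate 3 for cholesterol.

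The sham-operated pups give the same span of age in libraries that the baseline comparison does not use, P13 against P5, together with surgery. There 515 genes were called, 3.18% of all, 249 higher at P13 (1.54%) and 266 lower (1.65%). Of the 438 genes that rose at baseline, 424 had the same sign there and 151 rose, which is 34.5% of the baseline genes and 60.6% of the 249 sham genes. Over all genes tested 45.02% had a positive sign in the sham libraries. The Pearson correlation of the baseline and sham log2 fold changes over all genes tested was 0.263, and genes are not independent replicates. Of the 271 genes that fell at baseline, 251 had the same sign and 124 fell, 45.8% of the baseline and 46.6% of the 266 sham genes. No gene was called in opposite directions. Differences were larger at baseline for the genes called there, with a median log2 fold change of 1.54 against 0.94 for those that rose and -1.92 against -1.20 for those that fell, as the choice of genes by the baseline values favours. The mean log2(CPM + 1) of the 249 genes higher at P13 minus that of the 266 genes lower at P13 placed each baseline library on the sham scale. P2 baseline libraries scored -0.22, -0.13 and -0.17, and P5 sham libraries -0.07, 0.43 and 0.06. P10 baseline libraries scored 2.39, 3.11 and 2.87, P13 resected libraries 2.89, 2.95 and 3.89, and P13 sham libraries 3.78 to 4.38. The genes of this score were chosen on the sham libraries, which sets those libraries apart by construction. P10 replicate 1 was the lowest of its group and above all P2 baseline libraries.

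Lists with called members in both comparisons included the mitosis list, with 50 of 67 members called lower in the sham libraries, the replication list, with 27 of 52, the elastic fibre list, with 9 of 20 higher, and the universal fibroblast markers, with 10 of 20 higher. Others differed in their values. The interferon list had a median log2 fold change of -1.22 at baseline and 0.48 in the sham libraries, where 3 members rose and none fell. Isg15 was at 7.24, 24.8 and 7.18 CPM at P5 and 8.99, 6.14 and 9.19 CPM at P13 after sham surgery, so that the P2 baseline libraries were above all of these. Mural cell markers had a median of 1.13 at baseline and 0.33 in the sham libraries, where none of 13 was called. Higd1b was at 16.7, 20.6 and 20.7 CPM at P5 and 11.7, 25.2 and 22.6 CPM at P13, which overlapped. Immediate early genes had medians of 1.04 and 0.15, and complement genes 0.55 and 1.99, where the baseline value was 0.93 without P2 replicate 1 and 0.35 without P2 replicate 2. Tested as the difference between the baseline and the sham age differences, no gene passed in edgeR (smallest adjusted p = 0.282, 1067 genes or 6.60% at an unadjusted p under 0.05), against 129 in DESeq2 and 0 in limma voom. The difference was -3.39 for Isg15 (adjusted p = 0.562), -3.68 for Rtp4 (adjusted p = 0.409), 2.54 for Higd1b (adjusted p = 0.31) and 4.49 for Vtn (adjusted p = 0.282) on the log2 scale. An age difference particular to the baseline libraries was thus not shown for any of these genes.

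**Figure D5:**
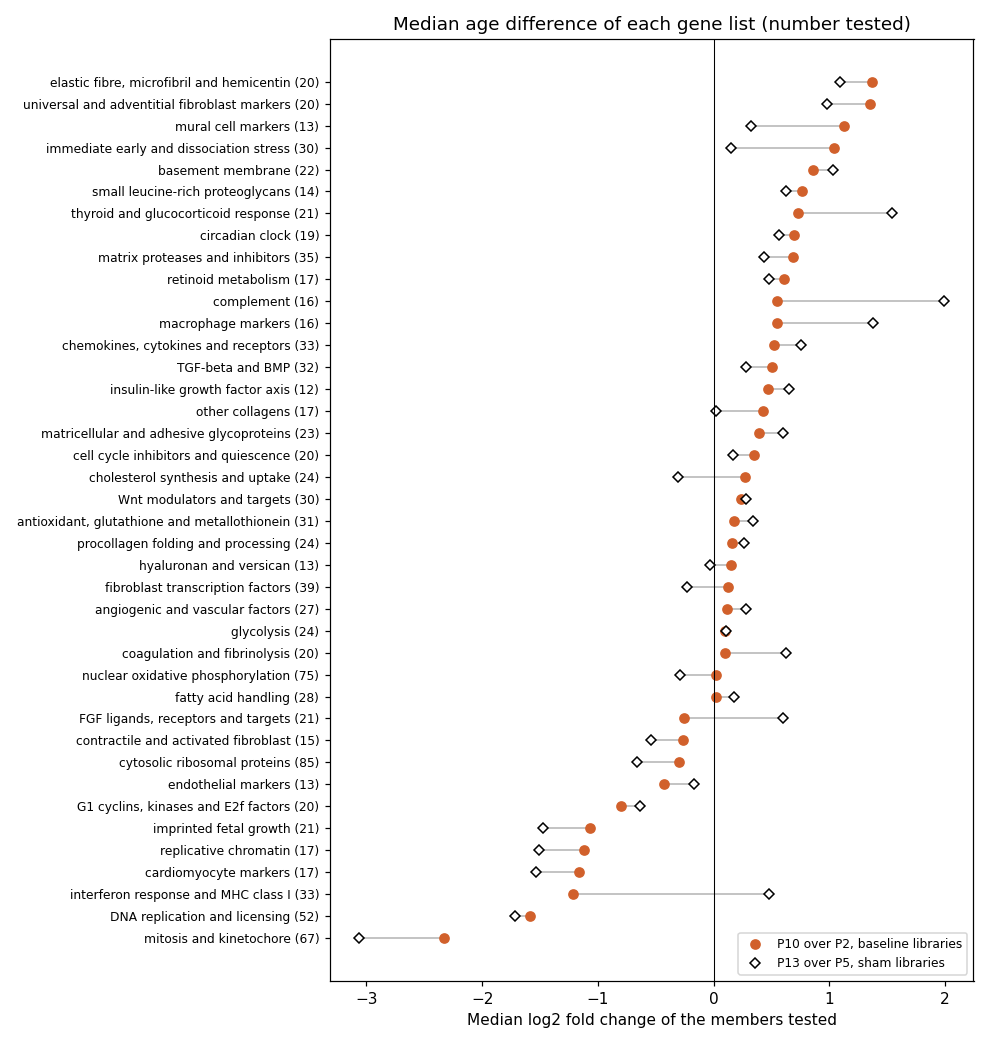
Median log2 fold change of the members tested of each gene list of 12 or more (y axis, number tested in parentheses) between P10 and P2 in the baseline libraries (orange circles) and between P13 and P5 in the sham libraries (open diamonds), joined by a line. The mitosis list (-2.33 and -3.06) and elastic fibre list (1.37 and 1.09) lie on the same side of 0 in both, and the interferon list (-1.22 and 0.48) does not.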

How the data were processed

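Bulk RNA-seq libraries had been made from sorted GFP+ cells with a SMARTer Ultra Low Input kit and Nextera XT. As the authors' processing notes list, reads were handled with fastp 0.20.0, STAR 2.7.0f and featureCounts of Subread 1.6.4 against GRCm38.p6. The deposited values are whole numbers per gene symbol whose totals differ between libraries, and they were taken as read counts that the authors had not normalized. There were 3 libraries in each of 6 groups. Of 55453 symbols 28906 had a count and 16170 passed filterByExpr (minimum count 10, minimum total 15). All 18 libraries were fitted with 1 mean per group in edgeR 4.0.16 (R 4.3.3) with TMM scaling and the quasi-likelihood test, and p-values were adjusted with Benjamini-Hochberg over all genes tested. The contrasts were P10 against P2 baseline, P13 against P5 sham, and their difference. The SE given is the absolute log2 fold change divided by the square root of the F value of the test. It is thus no separate measure of spread. The test was tried on simulated data first.

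The genes and lists were chosen with earlier results of these data known. Genes named were up to 12 per direction with the largest change among called genes whose groups did not overlap and whose mean was at least 5 CPM in the higher group, genes the study names for these ages, up to 4 called members per list (all where 5 or fewer) with the most abundant member, and sex-linked genes. Others were named after their values were seen, among them Gata4, Mki67, H19, Igf2, Fn1, Irf7, Fos, Dpp4, Ly6a and Thy1 and called list members given without per-library values. Alternatives were DESeq2 1.42.0 (test and size factors), limma 3.58.1 voom, no filter, a replicate block, baseline libraries alone and each library left out. Gene positions and exon overlaps came from GENCODE M21 on GRCm38, a release close to that of the counts, and promoters from RefSeq windows of GRCm38.p6. Some genes of the lists are not reported here.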

Additional observations from a re-analysis of the deposited data

How the results depend on the processing

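The 709 baseline calls became 738 with DESeq2 size factors, 1155 with no filter on low counts, 1654 with DESeq2's test, 3645 with voom and sample weights, 295 when the baseline libraries were fitted alone, and 264 to 1207 with 1 library left out. For the sham libraries 515 became 911 with no filter, 1272 with DESeq2, 125 when fitted alone and 312 to 416 with 1 library left out. The difference between these age differences, 0 genes, became 171 with no filter, 129 with DESeq2, 5 in the 12 baseline and sham libraries alone and 0 to 2 with 1 library left out. The causes were not tested. The 147 called named genes kept their direction wherever an alternative gave them a value (146 of them in the baseline libraries alone), and 60 kept their call throughout; 70 lost it without P2 replicate 1 and 69 without P10 replicate 2. Libraries of the same number did not deviate together (r across genes 0.00770, -0.0663 and 0.0959), so the numbers pair nothing. With a replicate block 1008 genes were called, or 373 in the baseline libraries alone, a fit chosen after seeing the data. With 3 libraries per group and 1 that stands apart, genes of few counts and modest folds may be missed.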

Other observations

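Genes outside the gene lists include some of the largest differences. Kcnab1, a potassium channel subunit, was at 0, 0.093 and 0.244 CPM at P2 and 13.4, 6.8 and 5.33 CPM at P10 (log2 fold change 6.22, SE 1.0, adjusted p = 0.00176), and Olfr558, an olfactory receptor gene, was at 0.598, 0.419 and 0 CPM and 27.7, 25.5 and 11.6 CPM (log2 fold change 5.92, SE 0.79, adjusted p = 0.000363). Both groups were separate in each, and both calls held with any 1 library left out. Ntrk2, the receptor of BDNF, was at 0.046, 0 and 0 CPM and 2.67, 8.94 and 15.3 CPM (log2 fold change 8.58, SE 2.02, adjusted p = 0.0213), and lost its call without 1 or more libraries (adjusted p = 0.0988 without P2 replicate 2). Grip2, a scaffold protein gene, had no count in any P2 library and 231 counts over the P10 libraries, at least 101-fold higher when the P2 group is set at 3 counts in all. Its call (adjusted p = 0.0279) was lost in 5 of the 6 fits that left out 1 library (adjusted p = 0.1 without P2 replicate 1).

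Among genes lower at P10, Pif1, a DNA helicase, was at 4.42, 11.1 and 11 CPM at P2 and 0, 0.107 and 0 CPM at P10 (log2 fold change -7.5, SE 1.24, adjusted p = 0.00218), and Gen1, a nuclease that resolves Holliday junctions, was at 5.62, 21.9 and 18.5 CPM and 0, 0.268 and 0 CPM (log2 fold change -7.14, SE 1.42, adjusted p = 0.00854). Wfdc18 was at 25.6, 30.6 and 21.8 CPM and 0, 0.642 and 0.296 CPM (log2 fold change -6.32, SE 1.25, adjusted p = 0.00815), and Strip2 at 25.9, 15.3 and 6.28 CPM and 0, 0.642 and 0 CPM (log2 fold change -6.06, SE 1.22, adjusted p = 0.00904). These 4 calls held with any 1 library left out.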
